A study of Mus musculus with 10 samples.

Results

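Intercalated cells of the mouse collecting duct were described in droplet single-cell RNA libraries of kidney cortex taken before and after acute kidney injury. A cell counted as intercalated when at least 2 of 5 genes (Atp6v1g3, Foxi1, Atp6v0d2, Slc4a1 and Slc26a4) had a unique molecular identifier (UMI) count and Slc12a1, Ptprc and Pecam1 had none. By this rule, 1386 of 52797 cells (2.63%) with at least 500 detected genes and at most 50% mitochondrial UMIs were intercalated, out of 64803 cell barcodes in 10 libraries. The control group was 1 library of normal mouse kidney, and the injured kidneys were taken on days 1, 2 and 4 (1 library each) and on days 7, 11 and 14 (2 libraries each). All animals were 4 weeks old by the labels, which name neither the kind of injury nor strain, sex or genotype, and do not say whether the 2 libraries of a day came from different animals. The p-values therefore measure the spread between libraries, which may be technical.

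Intercalated cells are the acid-base cells of the connecting tubule and collecting duct. They carry a vacuolar proton ATPase (V-ATPase), a pump built from a cytosolic V1 sector that hydrolyses ATP and a membrane V0 sector that conducts protons. Type A cells secrete acid into the urine and return bicarbonate to the blood through the exchanger AE1, the product of Slc4a1. Type B cells secrete bicarbonate through pendrin, the product of Slc26a4. Foxi1 is the forkhead factor that drives the intercalated program, and intercalated cells also release antimicrobial proteins such as lipocalin 2.

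The cells chosen by the rule carried the wider intercalated program. Levels are given throughout as CPM (the UMIs of a gene per 1000000 UMIs) of all intercalated cells of a library added together, with between 95 and 202 cells and 294902 to 965968 UMIs per library. Of 16 intercalated genes that the rule did not use, each stood above its level in all other kept cells in 10 of 10 libraries, with 1 gene listed under the older of its 2 names, Gpr116. Atp6v1c2, a V1 subunit, ranged from 138 to 576 CPM in intercalated cells and from 5.84 to 31.1 CPM in the other cells. Hepacam2, a cell adhesion gene, ranged from 110.2 to 220.3 CPM against 1.14 to 9.79 CPM. The ranges of both genes were far apart. The rule chose the cells by their counts, so these levels are a description without a test.

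Some cells lay close to the threshold, and RNA of other cell types was present. Exactly 2 of the 5 genes were found in 536 intercalated cells (median 1672.5 UMIs) and 3 or more in 850, while 3577 kept cells with exactly 1 of the genes (median 1720 UMIs) fell just outside, and 501 cells with 2 or more were left out for a UMI of Slc12a1, Ptprc or Pecam1. Of the 536, 46.5% had UMIs of at least 2 of 5 principal cell genes (Aqp2, Aqp3, Hsd11b2, Fxyd4 and Scnn1g), against 21.4% of the 3577. The summed level of the 8 measured principal cell markers was 3446 to 9822 CPM in intercalated cells and 1080.1 to 2168 CPM in all other cells. In the principal cells used for comparison later it was 5842 to 21962 CPM, and it was lower there than in intercalated cells on days 2 and 4. The 10 proximal tubule markers summed to 240.1 to 15747 CPM, below the other cells in every library. The 5 distal convoluted tubule markers summed to 163 to 1375 CPM, against 183 to 848 CPM in the other cells. The 4 connecting tubule markers summed to 2979 to 12625 CPM, against 836.5 to 2639 CPM. Of 8 macrophage markers, 1 (Ptprc, excluded by the rule) was at 0 and the sum ran from 2.07 CPM in the control to 2379.8 and 939 CPM on day 7. The 5 erythroid markers summed to 5.18 to 2391 CPM, highest in day 11 replicate 1. Cell barcodes were shared between 2 libraries in 99 cases, which touched 2 intercalated cells.

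The share of intercalated cells among all kept cells was higher on day 7 than on days 11 and 14. It was 3.29% of kept cells in the control (95% exact Clopper-Pearson interval 2.86 to 3.77%). Days 1, 2 and 4 gave 3.14%, 3.50% and 2.49%. The paired libraries gave 3.67% and 3.26% (day 7), 1.76% and 2.20% (day 11), and 2.10% and 1.80% (day 14). No library of day 11 or 14 reached a day 7 library. The difference of 1.50 percentage points had p = 0.0667 in a two-sided exact permutation test over the 6 libraries, the smallest p that 2 against 4 libraries can give (0.133 adjusted over the 2 denominators used). It was 0.385 points with 3 genes of the rule required. As a share of intercalated and principal cells together the difference was -3.32 percentage points (exact permutation p = 0.6). With each cell thinned to 800 UMIs the shares were 2.78% in the control, 2.86% ± 0.193 (SD, n = 2) on day 7, 1.63% ± 0.225 on day 11 and 1.67% ± 0.164 on day 14, so that the control stood with day 7 in both counts. Depth differed between libraries, with a median of 1753 to 3108 UMIs per intercalated cell.

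The relation of the share to time turned with the denominator, and neither form passed after adjustment with all intercalated cells counted. Across the 9 injured libraries, the share of kept cells against the logarithm of the day gave Pearson's r = -0.637 (exact permutation p = 0.0667, adjusted over 2 denominators 0.106) and Spearman's rho = -0.692 (p = 0.0453, adjusted 0.0906). Without the macrophage-marker cells described next, r was -0.833 (p = 0.00549) and rho -0.852 (p = 0.00573), and with at most 25% mitochondrial UMIs r was -0.691 (p = 0.0387) and rho -0.819 (p = 0.00996). Without days 1 and 2, r was -0.584 (p = 0.176) and rho -0.716 (p = 0.0794). As a share of intercalated and principal cells together, the values were 43.3% in the control, 18.4%, 20.3% and 19.5% on days 1, 2 and 4, and in the paired libraries 25.6% and 26.1% (day 7), 30.4% and 39.2% (day 11) and 28.2% and 18.9% (day 14). Spearman's rho with the day was then 0.498 (exact permutation p = 0.176), the opposite sign. Proximal tubule cells made up 2826 of 6134 kept cells in the control, 261 of 3621 and 388 of 5154 on day 7, and 4539 of 6941 and 3947 of 6183 on day 14, and their part in the share of all kept cells was not tested.

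Macrophage RNA in the chosen cells moved with day 7. Members with UMIs of at least 2 of 6 macrophage genes (C1qa, C1qb, C1qc, Lyz2, Csf1r and Tyrobp) numbered 44 and 20 in the day 7 libraries, 7 on day 4, 2 on day 1, 1 in day 11 replicate 2 and 0 elsewhere. Without these 74 cells the day 7 share was 2.66% ± 0.293 (SD, n = 2) and the difference from days 11 and 14 was 0.707 percentage points (exact permutation p = 0.0667).

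Cells classed as type B by UMIs of Slc26a4 outnumbered those classed as type A by Slc4a1 in 8 of the 9 injured libraries. Day 14 replicate 1 was the exception, and type B cells were fewer in the control. Cells with Slc4a1 but not Slc26a4 UMIs (type A) numbered 363, cells with Slc26a4 but not Slc4a1 (type B) 611, cells with both 37 and cells with neither 375. Type B made up 43.7% of type A and type B cells in the control and 76.2%, 84.6% and 83.3% on days 1, 2 and 4. The paired libraries held 67.3% and 72.9% (day 7), 62.1% and 60.7% (day 11) and 43.1% and 53.2% (day 14). At full depth, which differed between libraries, the exact 95% intervals of days 1, 2, 4 and of both day 7 libraries lay above the upper bound of the control, 51.6%. Those of day 11 (49.3 to 73.8% and 49.7 to 70.9%), day 14 replicate 1 (34.2 to 52.3%) and day 14 replicate 2 (42.6 to 63.6%) overlapped it. At 800 UMIs per cell the values were 52.8% in the control, 86.2%, 85.3% and 85.9% on days 1, 2 and 4, then 73.3% and 77.9% (day 7), 68.4% and 65.2% (day 11) and 53.3% and 63.4% (day 14). The values at 800 UMIs rest on fewer cells, with 8 type A and 22 type B cells in day 7 replicate 1, and are given without intervals. The intervals at full depth cover counting error only, and with 1 control library the days were not tested against it. Both genes belong to the rule that chose the cells, so the fractions are a description.

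**Figure D1:**
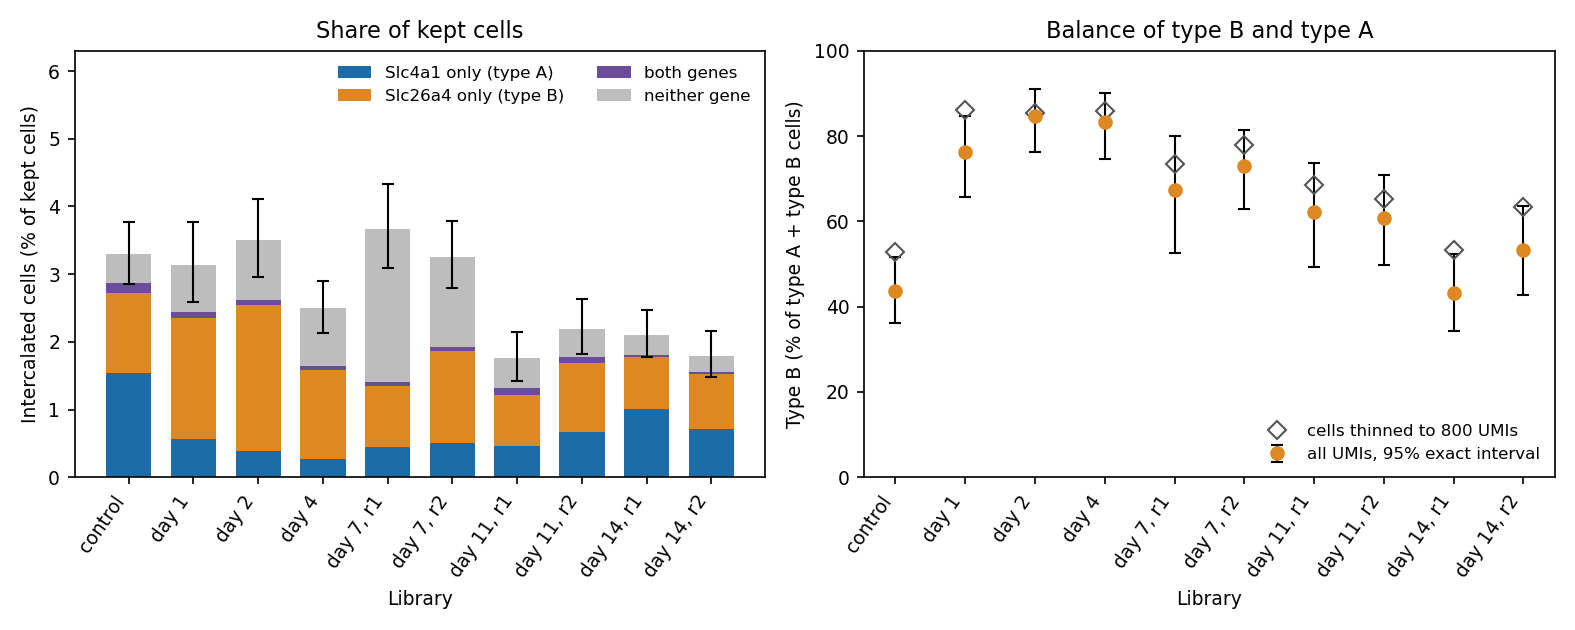
Left, bars give the share of kept cells that were intercalated in each of the 10 libraries, split by UMIs of Slc4a1 and Slc26a4, with exact 95% intervals for the whole bar; r1 and r2 are the replicates of a day. Right, points give type B cells as a percentage of type A and type B cells with exact 95% intervals, and open diamonds the same after thinning; the injured libraries up to day 7 lie between 67.3% and 84.6%, above the control at 43.7%.

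Cells classed as type A by Slc4a1 UMIs were few on the early days. The number of type A cells was 94 of 202 intercalated cells in the control, 20 of 112 on day 1, 16 of 143 on day 2, 17 of 160 on day 4, 16 of 133 and 26 of 168 on day 7, 25 of 95 and 35 of 116 on day 11, and 70 of 146 and 44 of 111 on day 14. Type B cells numbered 73 in the control and 64, 88 and 85 on days 1, 2 and 4. Cells with neither gene were 12.9% of intercalated cells in the control and 61.7% and 41.1% on day 7. Of the macrophage-marker cells of day 7, 32 of the 44 and 10 of the 20 fell in that class. On day 7 Aqp6, Kit and Dmrt2 together stood at 741 and 501 CPM in cells with neither gene. They stood at 730 and 837 CPM in type A and 147 and 128 CPM in type B cells. The 5 measured type B genes other than Slc26a4 stood at 270 and 371 CPM in cells with neither gene. In type B cells they stood at 1118 and 1772 CPM, and in type A cells at 406 and 460 CPM. The part of type A cells without a Slc4a1 UMI in that class was not tested. Slc4a1 is also a red cell gene. Hemoglobin UMIs were found in 78.6% of intercalated cells on day 1 and 7.69% on day 2, and their part in the type A counts was not tested. In proximal cells, which lack both exchangers, Slc4a1 UMIs were found in at most 0.34% and Slc26a4 UMIs in at most 3.23% of cells of a library, at median depths of 1379 to 2552 UMIs.

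Most genes outside the rule that are known from 1 of the types were higher in the class of that name. Aqp6, an intracellular water and anion channel of type A cells, ranged from 376 to 1018 CPM in type A cells and from 0 to 70.1 CPM in type B cells of the 10 libraries. Hmx2, a homeobox factor of type B cells, ranged from 0 to 10.8 CPM in type A and from 218 to 618 CPM in type B cells. Kit, Dmrt2, Gpr116, Rhbg and Defb1 were higher in type A cells in 10 of 10 libraries, and Insrr and Spink8 in type B cells in 10 of 10. Slc4a9, the basolateral exchanger of type B cells, was higher there in 9 of 10. Oxgr1, the receptor for oxoglutarate and a gene of the type B list, went the other way, with more in type A cells in 8 of 10 libraries (medians 121 and 63.0 CPM). Lcn2 and Clu showed no such split, with Lcn2 higher in type A cells in 7 and Clu in 5 of 10 libraries. Cells with neither exchanger gene carried Aqp6 at 128 to 449.6 CPM and Hmx2 at 0 to 110.0 CPM.

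Gene levels were then compared between days. The sums of all intercalated cells of a library were tested with edgeR's quasi-likelihood test over 9169 genes outside the rule, with Benjamini-Hochberg adjustment at 0.05, and log2 changes are given with their standard error. The changes use library sizes scaled by TMM (trimmed mean of M-values), whereas CPM is per total UMIs. From the control to day 7, falls are larger and rises smaller in the log2 changes than in the CPM values. On day 7, 363 genes (3.96%) were higher and 452 (4.93%) lower than in the control, 8.89% in all. Day 11 differed from the control in 427 genes (4.66%), 176 higher (1.92%) and 251 lower (2.74%), and day 14 in 207 genes (2.26%), 150 higher (1.64%) and 57 lower (0.622%). Against day 7, 788 genes (8.59%) were higher and 586 (6.39%) lower on day 11, 15% in all. On day 14, 866 (9.44%) were higher and 494 (5.39%) lower than on day 7, 14.8% in all. Between days 14 and 11, 221 (2.41%) were higher and 245 (2.67%) lower, 5.08% in all. The median log2 change over all genes lay between -0.07 and 0.07 in the 6 comparisons. DESeq2, an alternative test, called fewer genes in each. It called 249, 103 and 31 on days 7, 11 and 14 against the control. Against day 7 it called 496 and 537 on days 11 and 14, and 163 between days 14 and 11. The comparisons with the control share 1 library, whose spread was taken from the replicated days, and those with day 7 share both of its libraries.

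The edgeR counts moved with single libraries. Without day 11 replicate 2 the calls of day 11 were 113 against the control, 620 against day 7 and 199 against day 14. Without day 14 replicate 1 they were 126 for day 14 against the control, 731 against day 7 and 212 against day 11. Leaving out day 14 replicate 2 gave 131 calls against the control and 213 against day 11. Without day 7 replicate 1 or 2, day 11 differed from the control in 794 or 737 genes and day 14 in 410 or 317.

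Most V-ATPase subunits rose from day 7 to day 11. Of 21 subunit genes outside the rule, 13 rose and 1 fell from day 7 to day 11 (median log2 change 0.84, -0.07 over all genes), where 8.59% and 6.39% of all genes did. From day 7 to day 14, 6 rose and 0 fell (median 0.63), where 9.44% and 5.39% of all genes did. Day 7 was lower than the control in 3 and higher in 0 (median -0.42, 0.04 over all genes), where 4.93% and 3.96% of all genes were. The falls are smaller in CPM, which is not scaled by TMM. Day 11 was higher than the control in 2 subunits (median 0.57) and day 14 in 0 (median 0.21), where 1.92% and 1.64% of all genes were. From day 11 to day 14, 2 subunits fell (median -0.32), where 2.67% of all genes did. The sum of 4 connecting tubule markers (Calb1, Trpv5, Slc8a1 and Klk1) in intercalated cells was 4991 CPM in the control, 3079 and 5028 CPM on day 7, 12625 and 8731 CPM on day 11 and 7496 and 9784 CPM on day 14, and its part in these changes was not tested.

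Subunits enriched in intercalated cells were among those that moved. Atp6v1c2 encodes the C2 subunit, which joins the V1 and V0 sectors. It stood at 353 CPM in the control, 170.0, 158 and 138 CPM on days 1, 2 and 4, 151 and 214 CPM on day 7, 576 and 576 CPM on day 11, and 351 and 350.3 CPM on day 14. Every library from day 1 to day 7 lay below the control, and both day 11 libraries lay above it. Atp6v1c2 fell by 1.38 ± 0.27 on the log2 scale (SE; adjusted p = 0.00121) from the control to day 7, and rose by 1.95 ± 0.24 on the log2 scale (SE; adjusted p = 3.03e-06) from day 7 to day 11 and by 1.34 ± 0.24 on the log2 scale (SE; adjusted p = 0.0002) from day 7 to day 14. Atp6v1b1, the B1 subunit of the catalytic V1 head, whose loss causes distal renal tubular acidosis in people, stood at 348 CPM in the control, 221, 249.7 and 178 CPM on days 1, 2 and 4, 207 and 329.6 CPM on day 7, 641 and 730.3 CPM on day 11, and 356 and 298 CPM on day 14. The day 11 libraries were the 2 highest. It rose from day 7 to day 11 by 1.64 ± 0.24 on the log2 scale (SE; adjusted p = 4.8e-05), and its change from the control to day 7, -0.80 ± 0.28 (SE; adjusted p = 0.0809), did not pass. Principal cells had Atp6v1b1 too, at 31.8 to 140 CPM, below intercalated cells in 10 of 10 libraries. It was found in 6.22% and 19.3% of principal cells on day 7 and in 22.5% and 28.9% on day 11.

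Among other subunits, the order of days differed. Atp6v0e, a subunit of the membrane sector named here after its values were seen, stood at 293 CPM in the control, 271, 463 and 603 CPM on days 1, 2 and 4, 485 and 629 CPM on day 7, 668 and 812 CPM on day 11, and 450.4 and 466 CPM on day 14. All libraries but that of day 1 were above the control. Its rise from day 7 to day 11 was 0.71 ± 0.22 on the log2 scale (SE; adjusted p = 0.0298). Atp6v0c, the proteolipid of the proton-conducting ring, stood at 1016 CPM in the control, 438, 770.2 and 600.4 CPM on days 1, 2 and 4, 528 and 795 CPM on day 7, 2119 and 2227 CPM on day 11, and 1194 and 1089.7 CPM on day 14. All day 1 to day 7 libraries were below the control and the day 11 libraries were more than 2 times its level. It fell by 1.06 ± 0.27 on the log2 scale (SE; adjusted p = 0.0113) from the control to day 7 and rose by 2.02 ± 0.23 on the log2 scale (SE; adjusted p = 1.3e-06) from day 7 to day 11. In all other kept cells Atp6v0c ran from 255 to 473 CPM. Atp6v1a, the catalytic A subunit, stood at 2513 CPM in the control, 1769, 1348 and 1530.0 CPM on days 1, 2 and 4, 2003 and 1859.6 CPM on day 7, 3086 and 2447 CPM on day 11, and 2955 and 3078 CPM on day 14. Its lowest 5 values were those of days 1 to 7. From the control to day 7 it fell by 0.83 ± 0.26 on the log2 scale (SE; adjusted p = 0.0445), a call that was lost without day 7 replicate 2 (-0.79, adjusted p = 0.0685) or without either day 14 library (adjusted p = 0.0696 and 0.0826). It rose by 1.07 ± 0.22 on the log2 scale (SE; adjusted p = 0.00111) from day 7 to day 14. Atp6v0e2, the 1 subunit that fell from day 7 to day 11 (-1.85 ± 0.59, SE, adjusted p = 0.0362), lost its call without either library of day 11 (adjusted p = 0.146 and 0.18) and without day 7 replicate 2 (0.15).

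The 3 falls on day 7 numbered 2 to 5 when 1 library was left out (2 without either library of day 14). The 2 rises on day 11 against the control were 0 without day 11 replicate 2, and the 2 falls from day 11 to day 14 were 0 without day 11 replicate 2, without either library of day 14 or without cells with proximal markers, 1 without day 11 replicate 1 and 4 without day 7 replicate 1. On day 14 against the control, 1 of 21 had an unadjusted p under 0.05. The count of 13 was 7 without day 11 replicate 1 and 7 without day 7 replicate 1, and the count of 6 on day 14 was 3 without day 14 replicate 1, 11 without day 7 replicate 2 and 12 without cells with proximal markers. Without the macrophage-marker cells the counts of subunits that rose were 13 on day 11 and 5 on day 14.

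**Figure D2:**
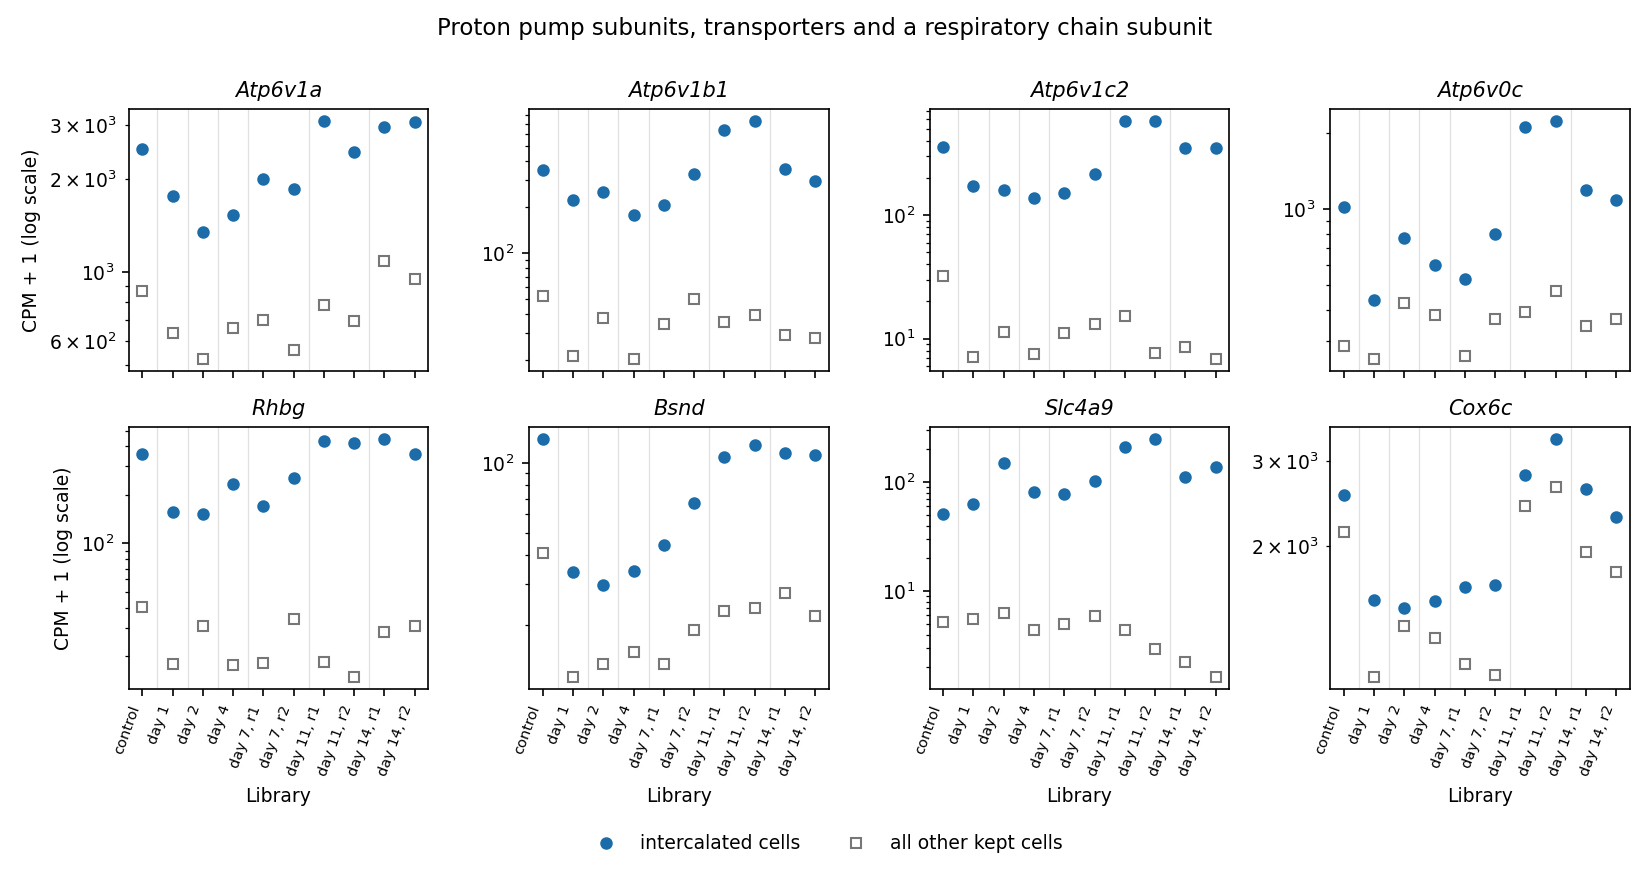
Each panel gives 1 gene, with CPM plus 1 on a log axis against the library; filled circles are the summed intercalated cells and open squares all other kept cells of the same library. Atp6v1c2, Atp6v0c, Rhbg and Bsnd are lower on days 1 to 7 than in the control and higher again on day 11, and Cox6c is lowest on days 1 to 7 in both kinds of cells.

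Promoters are shown for Atp6v1b1 and Atp6v1c2, 2 of the subunits enriched in intercalated cells whose level rose between days 7 and 11. Both were taken from RefSeq (GRCm38.p6) and hold 250 bases before to 50 after the start of transcription, written 5′ to 3′ on the gene's strand. Atp6v1b1 lies at chr6:83742767-83743066 on the plus strand, and its capitals mark TGTTTAC, a core forkhead motif, 98 bases before the start. Atp6v1c2 lies at chr12:17324681-17324980 on the minus strand, and its capitals mark a match to GGG, any 4 bases and TCC, letters that resemble a kappa B site, on the opposite strand 51 bases before the start.
Atp6v1b1: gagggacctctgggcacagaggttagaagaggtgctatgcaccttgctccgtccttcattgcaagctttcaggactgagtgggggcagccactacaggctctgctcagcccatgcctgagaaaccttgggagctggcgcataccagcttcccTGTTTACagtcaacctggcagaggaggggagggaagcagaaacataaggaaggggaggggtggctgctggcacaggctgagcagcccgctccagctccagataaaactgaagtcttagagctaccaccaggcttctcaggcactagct
Atp6v1c2: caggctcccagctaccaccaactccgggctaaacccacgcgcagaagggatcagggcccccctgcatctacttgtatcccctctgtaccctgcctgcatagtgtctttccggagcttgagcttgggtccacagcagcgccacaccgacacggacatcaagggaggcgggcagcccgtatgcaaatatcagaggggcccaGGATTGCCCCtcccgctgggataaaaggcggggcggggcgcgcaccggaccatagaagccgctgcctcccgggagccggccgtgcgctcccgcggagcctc
Both motifs were searched on both strands and did not overlap. TGTTTAC was in 1199 of 32851 promoters of this length (3.65%) and the kappa B-like spelling, GGG, any 4 bases and TCC, in 6296 (19.2%). Of 23 V-ATPase genes, 17 were in the table, and 1 of them held the first motif and 3 the second. The spelling of the motifs was chosen after the matches were seen. A match describes letters in this window, and its use by a factor was not measured.

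A minority of the acid, ammonia and chloride transport genes fell from the control to day 7. Of 18 tested acid-base and ion transport genes outside the rule, 6 fell and 0 rose from the control to day 7 (median log2 change -0.43, 0.04 over all genes), where 4.93% and 3.96% of all genes did. From day 7, 8 rose and 2 fell by day 11 (median 0.64; 8.59% and 6.39% of all genes) and 7 rose and 0 fell by day 14 (median 0.75; 9.44% and 5.39%). Against the control, 1 gene was higher and 1 lower on each of days 11 and 14. Over all genes 1.92% were higher and 2.74% lower on day 11, and 1.64% and 0.622% on day 14, so that 1 of 18 is read as no result for the list.

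Rhbg, the basolateral ammonia channel, stood at 357 CPM in the control, 155, 151 and 231 CPM on days 1, 2 and 4, 171 and 253 CPM on day 7, 427 and 416 CPM on day 11, and 441 and 355 CPM on day 14. The control was above every library up to day 7 and within the range of days 11 and 14. Rhbg fell by 1.18 ± 0.28 on the log2 scale (SE; adjusted p = 0.00632) from the control to day 7 and rose by 1.28 ± 0.25 on the log2 scale (SE; adjusted p = 0.000747) to day 11 and by 1.31 ± 0.24 on the log2 scale (SE; adjusted p = 0.000325) to day 14. Bsnd, barttin, the partner subunit that brings kidney chloride channels to the membrane, stood at 125 CPM in the control, 32.8, 28.9 and 33.1 CPM on days 1, 2 and 4, 43.2 and 65.9 CPM on day 7, 105 and 118 CPM on day 11, and 109 and 107 CPM on day 14. All libraries from day 1 to day 7 were below all others. Bsnd fell by 1.59 ± 0.32 on the log2 scale (SE; adjusted p = 0.00171) to day 7 and rose by 1.35 ± 0.29 on the log2 scale (SE; adjusted p = 0.00184) from there to day 14.

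Other transport genes, some of them known from type A cells, were also lower on day 7. Atp4a, the catalytic subunit of the gastric-type proton-potassium pump, stood at 52.8 CPM in the control, 5.96, 0 and 5.51 CPM on days 1, 2 and 4, 7.2 and 6.22 CPM on day 7, 27.1 and 63.4 CPM on day 11, and 11.4 and 6.82 CPM on day 14. It fell by 3.40 ± 0.57 on the log2 scale (SE; adjusted p = 0.000222) from the control to day 7 and rose by 3.06 ± 0.59 on the log2 scale (SE; adjusted p = 0.000742) to day 11, the second call lost without day 11 replicate 2 (2.36, adjusted p = 0.0829). The day 14 libraries were again below the control. Slc26a7, a basolateral chloride and bicarbonate transporter of type A cells, was at 39.3 CPM in the control and 2.4 and 6.22 CPM on day 7, a fall of 3.40 ± 0.76 on the log2 scale (SE; adjusted p = 0.00444). Aqp6 fell by 1.35 ± 0.32 on the log2 scale (SE; adjusted p = 0.00652) over the same days, a call lost without day 7 replicate 2 (-0.91, adjusted p = 0.0622). Within type A cells alone Aqp6 stood at 845 CPM in the control, 1018, 388 and 391 CPM on days 1, 2 and 4, 500.3 and 376 CPM on day 7, 503 and 955 CPM on day 11, and 657 and 617 CPM on day 14. The day 7 values of type A cells were below the control and both day 11 libraries, and around those of days 2 and 4. The number of cells classed as type A by Slc4a1 UMIs fell over the same days. Its part in the fall of Aqp6 in all intercalated cells was not tested.

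Slc4a9, the exchanger through which type B cells return sodium and bicarbonate to the blood, was the 1 transport gene above the control on days 11 and 14. It stood at 49.7 CPM in the control, 62.6, 149.8 and 81.3 CPM on days 1, 2 and 4, 76.8 and 101 CPM on day 7, 210.2 and 247 CPM on day 11, and 111 and 136 CPM on day 14. The control was the lowest library. Slc4a9 rose by 2.06 ± 0.34 on the log2 scale (SE; adjusted p = 0.00118) from the control to day 11. The rise to day 14, 1.27 ± 0.34 (SE; adjusted p = 0.0473), was lost without either day 14 library (adjusted p = 0.132 and 0.248). In type B cells alone it was at 70.6 CPM in the control, 284 and 385 CPM on day 11 and 214 and 212 CPM on day 14. Car2, the cytosolic carbonic anhydrase, ranged from 1643 to 3432 CPM, and none of its 6 changes passed.

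With DESeq2, 0 of the 6 falls from the control to day 7 passed at 0.05, with adjusted p = 0.0661 for Rhbg, 0.122 for Bsnd and 0.0887 for Atp4a. The call of Car4, which proximal cells also express (-2.92 ± 0.75, SE, adjusted p = 0.0124), was lost without day 7 replicate 2 (-1.87, adjusted p = 0.189). The rises of day 11 fell from 8 to 3 without day 11 replicate 2, and those of day 14 from 7 to 3 without day 14 replicate 1 and to 4 without day 7 replicate 1.

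Some identity and receptor genes of intercalated cells rose after day 7, with Hmx2 as the only transcription factor among those of day 11. Of 18 tested genes, 7 rose and 0 fell from day 7 to day 11 (median log2 change 0.45), and 3 rose and 0 fell from day 7 to day 14 (median 0.12). Over all genes, 8.59% rose to day 11 and 9.44% to day 14. Against the control, 1 was higher on day 7, where 3.96% of all genes were, and 1 on day 11, where 1.92% were. A count of 1 of 18 is read as no result for the list. Hmx2 stood at 101 CPM in the control, 161, 272 and 202 CPM on days 1, 2 and 4, 120.1 and 202 CPM on day 7, 288 and 253 CPM on day 11, and 139.8 and 177 CPM on day 14. The control was the lowest library, and the rise to day 11 was 1.28 ± 0.34 on the log2 scale (SE; adjusted p = 0.0285), lost without day 11 replicate 1 (1.13, adjusted p = 0.0645). In type B cells alone it ran from 218 CPM in the control to 618 CPM in day 11 replicate 1.

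P2ry14, the receptor for UDP-glucose through which intercalated cells are known to start inflammation, was the 1 gene of the 18 above the control on day 7. It stood at 11.4 CPM in the control, 17.9, 21 and 20.7 CPM on days 1, 2 and 4, 64.8 and 70.9 CPM on day 7, 40.7 and 33.2 CPM on day 11, and 39 and 9.1 CPM on day 14. The 2 day 7 libraries were the highest, and the change from the control was 2.12 ± 0.55 (SE; adjusted p = 0.014). DESeq2 did not call it (adjusted p = 0.433). Insrr, the alkali-sensing insulin receptor-related receptor of type B cells, rose by 1.57 ± 0.36 on the log2 scale (SE; adjusted p = 0.00421) from day 7 to day 11, from 31.2 and 69.7 CPM to 122 and 136 CPM. The other genes that rose to day 11 were Hmx2, Oxgr1, Spink8, Avpr1a, Tmem213 and Tmem117. Without day 7 replicate 1 the count of 7 was 3, and without day 11 replicate 1 it was 4. The count of 3 on day 14 was 1 without day 7 replicate 1, 5 without day 7 replicate 2 and 1 without day 14 replicate 2.

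Injury genes rose strongly in intercalated cells and fell again after day 7. Of 30 genes, 22 were higher on day 7 than in the control and 0 lower (median log2 change 2.51, or 2.12 with genes at 0 in the control placed at their bound), where 3.96% of all genes were higher. On day 11, 9 were still higher than the control and on day 14, 3, where 1.92% and 1.64% of all genes were. From day 7, 18 fell by day 11 and 23 by day 14, with 0 rising in either (medians -1.34 and -2.10), against 6.39% and 5.39% of all genes. From day 11 to day 14, 6 fell, where 2.67% of all genes did. DESeq2 called 14 of the genes on day 7 against the control, and 10 and 15 falls by days 11 and 14. Intercalated cells with UMIs of at least 2 of the 5 principal cell genes varied over the same days. They made up 48.0% in the control and 49.1%, 58.7% and 65.6% on days 1, 2 and 4. The paired libraries held 57.9% and 59.5% (day 7), 45.3% and 29.3% (day 11) and 37.0% and 34.2% (day 14). The part of principal cell RNA in the injury genes was not tested.

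Lcn2 encodes lipocalin 2 (NGAL), the iron-chelating defence protein that serves as an injury marker. It stood at 2.07 CPM in the control, 1613, 737 and 2479 CPM on days 1, 2 and 4, 1064 and 1672 CPM on day 7, 44.1 and 103 CPM on day 11, and 43.9 and 15.9 CPM on day 14. The 5 libraries from day 1 to day 7 were all at least 7 times above the highest of the others. From 2 UMIs in the control to 1787 on day 7, the ratio of levels was 519 (95% counting interval 143 to 4285), with adjusted p = 3.92e-09. The ratios of days 11 and 14 to the control were 32.9 (95% counting interval 8.61 to 279.6) and 15.3 (95% counting interval 3.92 to 131), with adjusted p = 0.00111 and 0.0198. The day 14 call was lost without day 14 replicate 1 (log2 change 2.69, adjusted p = 0.311), and both late calls without cells with proximal markers (adjusted p = 0.0909 and 0.114). Without the macrophage-marker cells the adjusted p of day 7 was 1.88e-11.

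The gene was found in many intercalated cells and not in a few alone. Lcn2 UMIs were present in 0.99% of intercalated cells of the control, 62.5%, 31.5% and 50.6% on days 1, 2 and 4, 57.9% and 45.8% on day 7, and 3.42% and 1.8% on day 14. In proximal cells of the same libraries the shares were 0 of 2826 cells in the control, 40.5% on day 1 and 23.4% and 17.5% on day 7, at median depths of 1717 and 2551 UMIs against 1753 and 2619 in intercalated cells. Each of the 9 injured libraries had the larger share in intercalated than in proximal cells. Principal cells had a larger share than intercalated cells in all 10 libraries, also at 800 UMIs per cell. Their share was 5.66% in the control, 75.7% on day 1 and 66.8% and 61.1% on day 7. On day 11 it was 21.1% and 15%, where intercalated cells had 4.21% and 6.03%. Both types had the gene: on day 7 it stood at 1352 and 1018 CPM in type A and 745 and 733 CPM in type B cells. Cells with neither exchanger gene, the class that held most macrophage-marker cells in replicate 1 and 10 of the 20 in replicate 2, stood at 1117 and 2995 CPM, the highest of the 3 in replicate 2.

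The promoter of Lcn2 is shown because it is the injury gene described here in most detail. From RefSeq (GRCm38.p6) it lies at chr2:32387690-32387989 on the minus strand, and the capitals mark a match to the kappa B-like letters on the opposite strand, 102 bases before the start.
Lcn2: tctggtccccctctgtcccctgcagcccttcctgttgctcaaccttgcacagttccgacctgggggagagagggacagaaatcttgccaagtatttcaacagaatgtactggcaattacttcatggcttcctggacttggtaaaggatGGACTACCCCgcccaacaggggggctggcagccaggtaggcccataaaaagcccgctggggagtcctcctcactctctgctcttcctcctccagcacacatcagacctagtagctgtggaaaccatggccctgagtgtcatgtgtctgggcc
Binding at this place was not measured, and the motif's share among all promoters, 19.2%, is that given above.

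Clu, Krt8 and Spp1 of the injury list rose with it. Clu, the secreted chaperone clusterin, stood at 739 CPM in the control, 11834, 9406 and 11072 CPM on days 1, 2 and 4, 12125 and 8457 CPM on day 7, 1753 and 1307 CPM on day 11, and 473 and 1729 CPM on day 14. The lowest of the 5 libraries from day 1 to day 7, at 8457 CPM, was above the highest of the others, at 1753 CPM. Clu rose by 3.34 ± 0.51 on the log2 scale (SE; adjusted p = 6.23e-05) from the control to day 7 and fell by 2.81 ± 0.37 on the log2 scale (SE; adjusted p = 4.75e-06) from day 7 to day 14. Krt8, a keratin of simple epithelia, stood at 133 CPM in the control, 1366, 870.1 and 979 CPM on days 1, 2 and 4, 1556 and 812 CPM on day 7, 349 and 344 CPM on day 11, and 151 and 207 CPM on day 14. It rose by 2.69 ± 0.36 on the log2 scale (SE; adjusted p = 1.05e-05) and fell by 2.30 ± 0.27 on the log2 scale (SE; adjusted p = 1.07e-06) over the same days, and the change from the control to day 14, 0.39 ± 0.34 (SE; adjusted p = 0.648), did not pass. Spp1, the matrix phosphoprotein osteopontin, stood at 664 CPM in the control, 12499, 4469.9 and 4842 CPM on days 1, 2 and 4, 5118 and 7312 CPM on day 7, 1749.7 and 1654 CPM on day 11, and 1182 and 2020.1 CPM on day 14. Day 1 was its highest library. Spp1 rose by 2.78 ± 0.36 on the log2 scale (SE; adjusted p = 7.57e-06) to day 7, and its level on day 14 was above the control by 1.24 ± 0.33 on the log2 scale (SE; adjusted p = 0.048), a call lost without either day 14 library (adjusted p = 0.0649 and 0.454).

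Genes near 0 in the control rose as well. Krt19, a keratin of embryonic and duct epithelium, went from 1 UMI to 197, a ratio of 114 (95% counting interval 20.3 to 4539), with adjusted p = 8.56e-08. S100a6, a calcium-binding protein of dividing and stressed cells, went from 2 UMIs to 312, a ratio of 90.5 (95% counting interval 24.9 to 751), with adjusted p = 2.65e-08. S100a6 was lower in intercalated cells than in all other kept cells in all 10 libraries. On day 7 it stood at 255 and 256 CPM in intercalated, 818 and 640 CPM in principal and 723 and 828 CPM in all other kept cells. Havcr1 (KIM-1), best known from proximal tubule, had 61 UMIs on day 7 and 0 in the control and on day 11, and was at least 11.8-fold higher on day 7 than in the control (adjusted p = 0.000355). Its levels were 167, 47.3 and 263 CPM on days 1, 2 and 4. Anxa2, a membrane-binding annexin, rose from 12.4 CPM in the control to 389 and 329.6 CPM on day 7, by 4.37 ± 0.43 on the log2 scale (SE; adjusted p = 1.23e-07). Other genes of the list that rose to day 7 included Cd24a (1.74), Cdkn1a (2.59) and Tmsb10 (1.97), on the log2 scale. Sox4, a factor of the developing kidney, did not pass on day 7 (0.49 ± 0.34, SE, adjusted p = 0.445) and fell by 1.48 ± 0.29 on the log2 scale (SE; adjusted p = 0.00078) from day 7 to day 14, a call lost without day 14 replicate 1 (adjusted p = 0.0591).

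The 3 calls of day 14 against the control were Lcn2, Spp1 and Anxa2, and their count was 0 without day 14 replicate 1, 1 without day 14 replicate 2, 0 without cells with proximal markers and 0 with DESeq2. The 9 of day 11 were 5 without day 11 replicate 2, 6 without day 11 replicate 1 and 4 without cells with proximal markers. The 18 falls from day 7 to day 11 numbered 11 without day 11 replicate 2. The 6 falls from day 11 to day 14 numbered 2 without day 11 replicate 2 and 3 without either library of day 14.

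**Figure D3:**
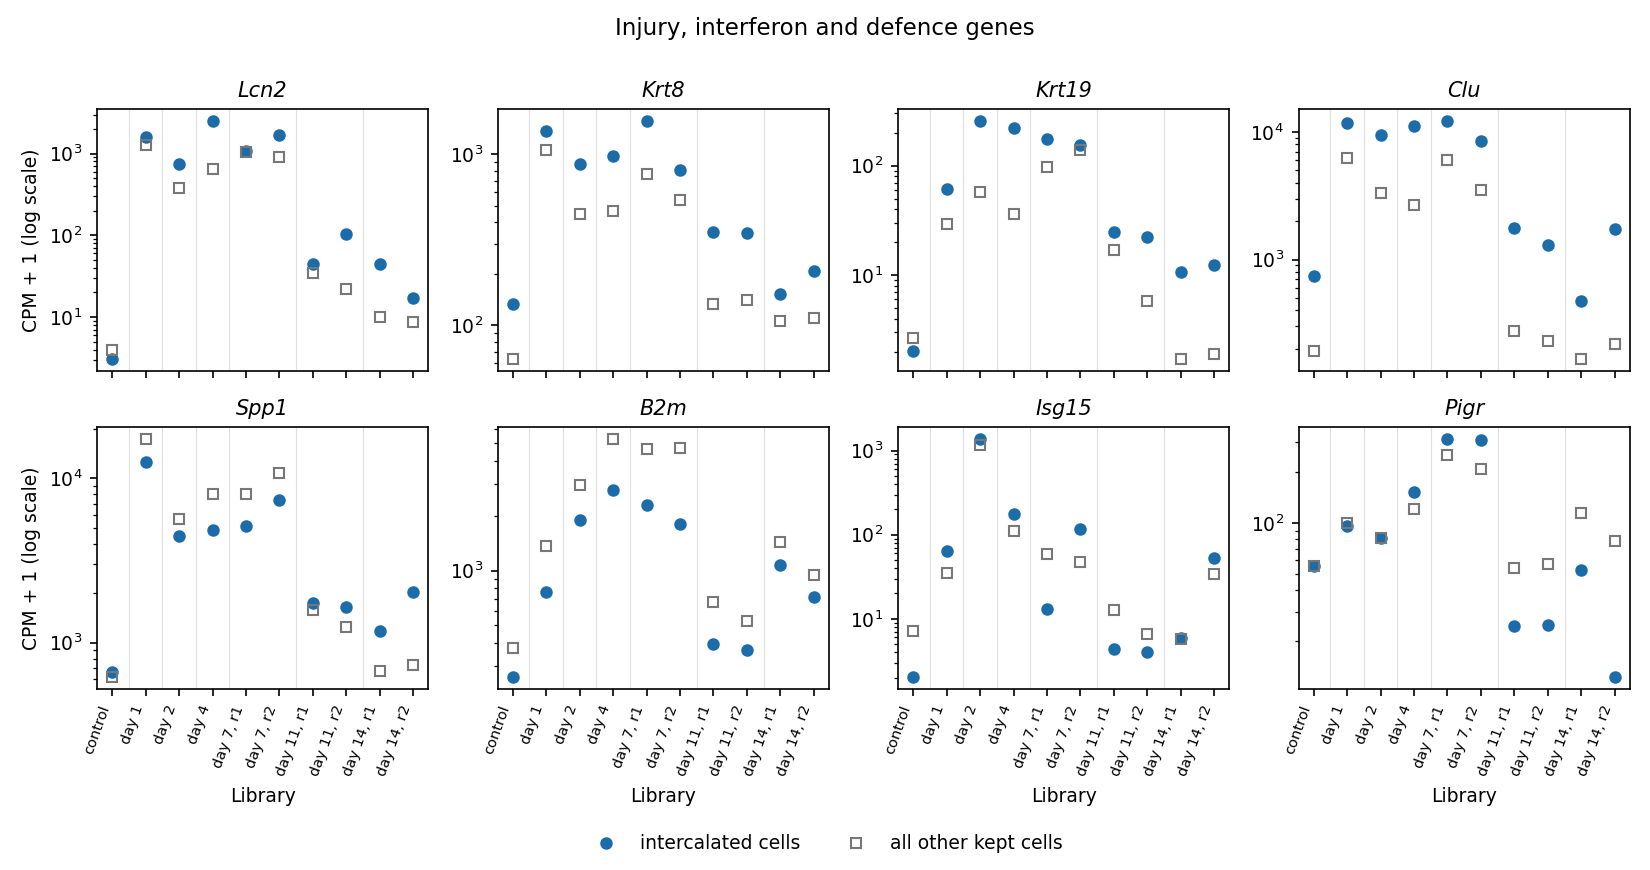
Each panel gives 1 gene, with CPM plus 1 on a log axis against the library, for summed intercalated cells (filled circles) and all other kept cells (open squares). Lcn2, Krt8, Krt19 and Clu are high from day 1 to day 7 and lower after, Isg15 is highest on day 2 at 1366 CPM, and B2m is lower in intercalated than in other cells in every library.

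Chemokines, complement and defence genes were raised on day 7. Of 15 tested genes, 9 rose and 0 fell from the control to day 7 (median log2 change 2.12, 1.88 with bounds), where 3.96% and 4.93% of all genes did, and 0 passed in edgeR on day 11 or day 14 (unadjusted p under 0.05 in 4 and 1). From day 7, 10 fell by day 11 and 11 by day 14 (6.39% and 5.39% of all genes). Pigr, the receptor that carries IgA across epithelia, stood at 54.9 CPM in the control, 95.4, 80.2 and 151 CPM on days 1, 2 and 4, 309.8 and 305 CPM on day 7, 23.7 and 24.1 CPM on day 11, and 52 and 11.4 CPM on day 14. The day 7 libraries were the 2 highest. Pigr rose by 2.03 ± 0.40 on the log2 scale (SE; adjusted p = 0.00121) and fell again by 3.36 ± 0.42 on the log2 scale (SE; adjusted p = 3.85e-06) by day 11. Cxcl16, a membrane chemokine, rose by 2.12 ± 0.42 on the log2 scale (SE; adjusted p = 0.00135). C3, the central complement component, had 0 UMIs in the control and 46 on day 7, at least 8.9-fold higher (adjusted p = 0.00154). All 95 UMIs of Cxcl10, another chemokine, on day 7 came from replicate 2, and without that library both groups are at 0. Ccl2, a monocyte chemokine, was at least 6.19-fold higher (adjusted p = 0.00153). Macrophage markers were also highest on day 7, and without the macrophage-marker cells the count of 9 was 8. With DESeq2 it was 3. The 11 falls to day 14 were 7 without day 7 replicate 2 or either library of day 14. Defb1, a beta-defensin, ranged from 1709.9 to 3743 CPM and none of its 6 changes passed.

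Interferon-stimulated and MHC class I genes were raised on day 7 and part of them again on day 14. Of 19 genes, 15 rose and 0 fell from the control to day 7 (median log2 change 2.90), where 3.96% and 4.93% of all genes did. Against the control 1 was higher on day 11 and 4 on day 14, where 1.92% and 1.64% of all genes were, and the 1 of 19 is read as no result for the list. From day 7 to day 11, 13 fell (6.39% of all genes), and from day 11 to day 14, 4 rose, where 2.41% of all genes did. With DESeq2 the 15 were 7, the 13 were 8 and the 4 of each later comparison were 2. Levels of Ifit1, Ifi27 and Rtp4 in other cells moved with the library too. Ifit1 on day 2 was at 1585 CPM in intercalated, 1304 CPM in principal and 1293 CPM in all other kept cells. Ifi27 in the day 14 libraries was at 71.5 and 494, 36.3 and 221, and 59.9 and 307 CPM in the same order. Rtp4 there was at 4.88 and 111, 6.49 and 64.5, and 5.62 and 37.1 CPM. B2m, the light chain of MHC class I, stood at 259.8 CPM in the control, 761, 1900.5 and 2764 CPM on days 1, 2 and 4, 2298 and 1814 CPM on day 7, 393 and 365 CPM on day 11, and 1068 and 714 CPM on day 14. The day 11 libraries lay between the control and every other injured library. B2m rose by 2.53 ± 0.32 on the log2 scale (SE; adjusted p = 5.53e-06) from the control to day 7, fell by 2.12 ± 0.25 on the log2 scale (SE; adjusted p = 1.51e-06) to day 11 and rose by 1.35 ± 0.25 on the log2 scale (SE; adjusted p = 0.00176) to day 14, the last call lost without day 14 replicate 1 (adjusted p = 0.124). H2-K1, a class I heavy chain, stood at 88 CPM in the control, 423, 749 and 1177 CPM on days 1, 2 and 4, 908 and 859.5 CPM on day 7, 122 and 142 CPM on day 11, and 537 and 300.3 CPM on day 14. It rose by 2.87 ± 0.35 on the log2 scale (SE; adjusted p = 2.95e-06) to day 7, and was above the control by 2.23 ± 0.34 on the log2 scale (SE; adjusted p = 0.00089) on day 14.

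Some interferon calls depended on 1 library, and others did not. Ifi44, an interferon-induced protein, was at 0 CPM in the control and 31.2 and 31.1 CPM on day 7. Isg15, a ubiquitin-like interferon product, stood at 1.04 CPM in the control, 62.6, 1366 and 176 CPM on days 1, 2 and 4, 12 and 116 CPM on day 7, 3.39 and 3.02 CPM on day 11, and 4.88 and 52.3 CPM on day 14. Day 2 was more than 7 times above any other library, and the paired libraries of days 7 and 14 differed by more than 9 times. The day 7 call (adjusted p = 0.00665) was lost without day 7 replicate 2 (adjusted p = 0.309). Rtp4, an interferon-induced receptor transporter, stood at 1.04 CPM in the control, 41.8, 338 and 175 CPM on days 1, 2 and 4, 45.6 and 98.3 CPM on day 7, 0 and 3.02 CPM on day 11, and 4.88 and 111 CPM on day 14. Its 1 UMI in the control against 52 on day 14 gave a ratio of 46.7 (95% counting interval 8.03 to 1881) and adjusted p = 0.0301. Without day 14 replicate 2 the adjusted p was 0.687, and that of Ifi27 was 0.391, against 0.0122 with it. B2m on day 14 against the control was lost without day 14 replicate 1 (adjusted p = 0.0714). The count of 15 was 10 without day 7 replicate 2. The 4 genes of day 14 against the control were 2 without replicate 2 of that day and 7 without replicate 1, and 8 when a library of day 7 or day 11 was left out. The 4 rises from day 11 to day 14 were 2 without day 14 replicate 2 and 7 without day 14 replicate 1.

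Oxidative phosphorylation genes were low on day 7 and higher on days 11 and 14. Of 28 nuclear-encoded subunits, 14 fell and 0 rose from the control to day 7 (median log2 change -0.84, 0.04 over all genes), where 4.93% and 3.96% of all genes did. From day 7, 24 rose to day 11 and 28 to day 14, where 8.59% and 9.44% of all genes did (medians 1.19 and 1.19). Against the control, 0 of 28 passed in edgeR on day 11 or 14 (unadjusted p under 0.05 in 0 and 3), nor with DESeq2, which called 6 falls to day 7. Cox6c, a subunit of cytochrome c oxidase, stood at 2554 CPM in the control, 1548, 1485 and 1539.7 CPM on days 1, 2 and 4, 1645 and 1661 CPM on day 7, 2804 and 3329 CPM on day 11, and 2621 and 2302 CPM on day 14. Days 1 to 7 formed the lowest 5 libraries, with at most 1661 CPM. Cox6c fell by 1.08 ± 0.25 on the log2 scale (SE; adjusted p = 0.00592) and rose by 1.20 ± 0.22 on the log2 scale (SE; adjusted p = 0.000394) from day 7 to day 11. In all other kept cells it ran from 1071 to 1365 CPM on days 1 to 7 and was 2143 CPM in the control. Without day 14 replicate 1 the rise to day 14 numbered 17 of 28. Without cells with proximal markers 8 of 28 fell from the control to day 7, and with DESeq2 6.

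Most mitochondrially encoded messenger RNAs fell from the control to day 7. Of 13, 10 fell and 0 rose (median -1.05), where 4.93% and 3.96% of all genes did. From day 7 to day 14, 11 rose and 0 fell (median 1.27), where 9.44% and 5.39% did. Between day 7 and day 11, 6 rose and 1 fell (median 0.63), where 8.59% and 6.39% of all genes did, and on day 11, 3 were lower than in the control (2.74% of all genes) and 0 higher. mt-Co1, a core subunit of cytochrome c oxidase, stood at 10061 CPM in the control, 9397, 8603 and 5816 CPM on days 1, 2 and 4, 5134 and 7188 CPM on day 7, 14347 and 16716 CPM on day 11, and 14087 and 12821 CPM on day 14. The 3 libraries of days 4 and 7 were the lowest. It fell by 1.16 ± 0.28 on the log2 scale (SE; adjusted p = 0.00897) to day 7 and rose by 1.55 ± 0.24 on the log2 scale (SE; adjusted p = 5.58e-05) from day 7 to day 14. The median mitochondrial share of UMIs was 27.1% in intercalated cells of the control, 4.43% and 6.93% on day 7, and 20.9% and 23.6% on day 14. That share takes in every mitochondrial gene counted, of which the 13 messenger RNAs are only a part. In all kept cells the medians were 23.6% in the control, 3.64% and 4.32% on day 7, and 16.2% and 18.7% on day 14, so that both moved together. The part of RNA quality in this was not tested.

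**Figure D4:**
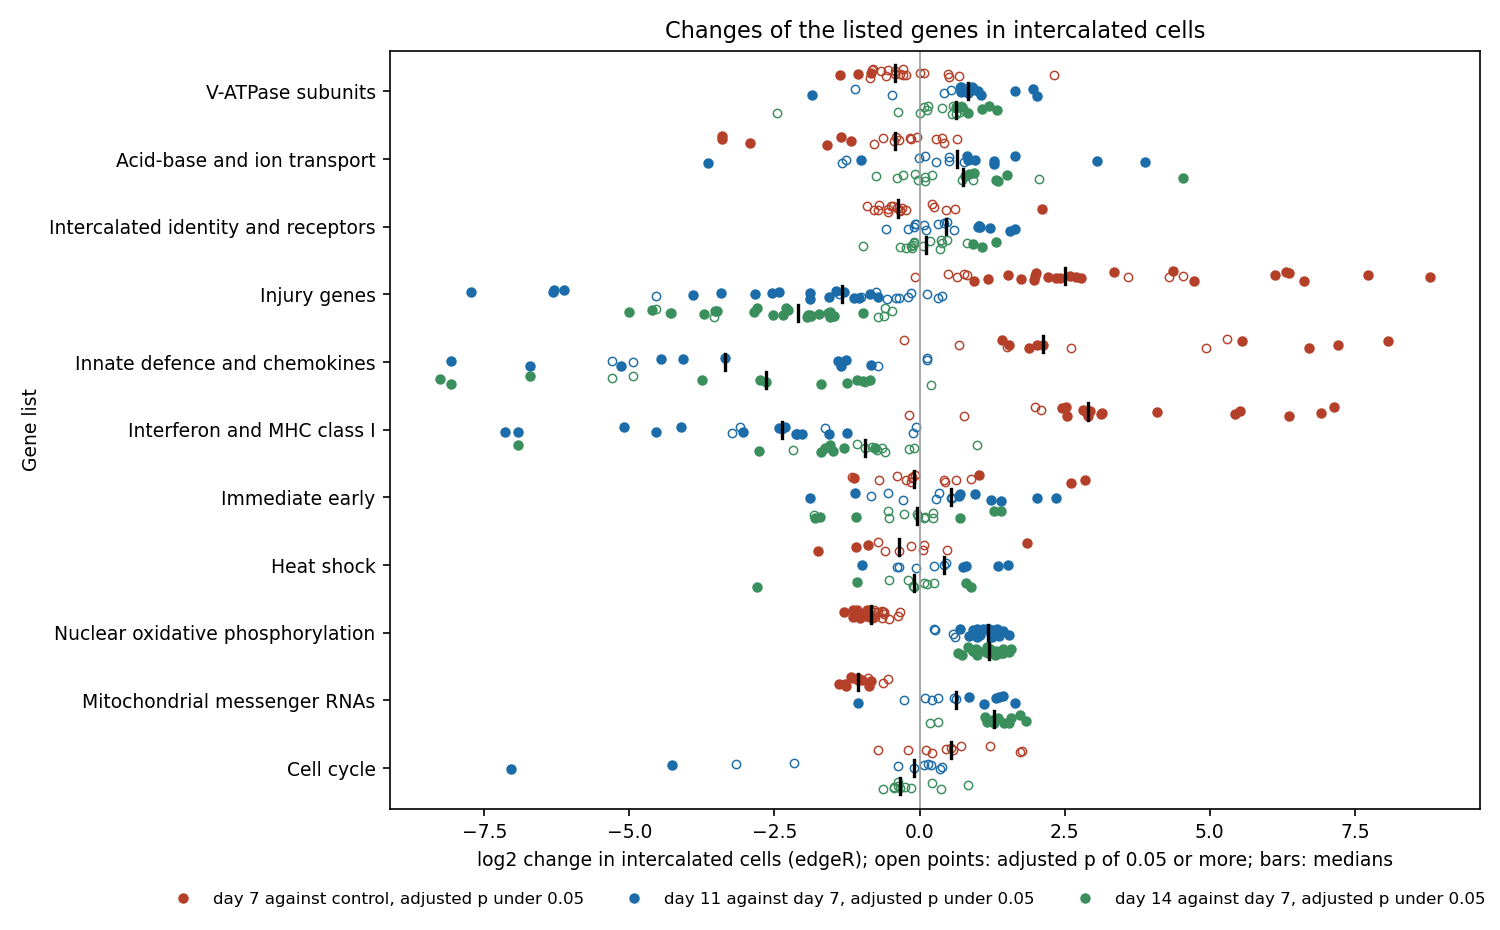
Points are the edgeR log2 changes of the tested genes of each of the 11 lists in intercalated cells, for day 7 against the control, day 11 against day 7 and day 14 against day 7; filled points passed an adjusted p of 0.05, open points did not, and bars are medians. Injury, innate and interferon genes lie to the right on day 7 and to the left after it, and oxidative phosphorylation genes do the reverse.

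Immediate early and heat shock genes passed in both directions. Of 16 immediate early genes, 3 rose and 1 fell from the control to day 7, where 3.96% and 4.93% of all genes did, and 7 rose and 2 fell from day 7 to day 11, where 8.59% and 6.39% did. The 1 and 2 falls are near those shares. Klf4, a growth-arrest factor of epithelia, rose by 2.62 ± 0.45 on the log2 scale (SE; adjusted p = 0.000283) to day 7, and Atf3, a stress-induced factor, stood at 324 CPM in the control, 113, 317 and 161 CPM on days 1, 2 and 4, 142 and 254 CPM on day 7, 512 and 824 CPM on day 11, and 356 and 378 CPM on day 14. Atf3 was lowest in the libraries of days 1, 4 and 7 and highest on day 11, with a rise of 2.03 ± 0.27 on the log2 scale (SE; adjusted p = 9.86e-06) from day 7. Of 11 heat shock genes, 1 rose and 3 fell to day 7, and 3 rose and 2 fell on day 11 against the control, where 1.92% and 2.74% of all genes did. Hspb1, the small heat shock protein, was at 36.2 CPM in the control, 156 and 198 CPM on day 7 and 17.9 and 20.5 CPM on day 14. It rose by 1.85 ± 0.35 on the log2 scale (SE; adjusted p = 0.000882) to day 7 and fell by 2.80 ± 0.33 on the log2 scale (SE; adjusted p = 1.15e-06) from day 7 to day 14. Hsph1, a large chaperone of the same response, fell by 1.74 ± 0.34 on the log2 scale (SE; adjusted p = 0.00126) to day 7. The 7 rises to day 11 were 3 without day 11 replicate 2.

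Of 11 cell cycle genes tested, 0 differed between day 7 and the control in edgeR (unadjusted p under 0.05 in 1), and 2 fell from day 7 to day 11, where 6.39% of all genes did. DESeq2 called 0 in both comparisons. Mki67, a proliferation marker, stood at 22.8 CPM in the control, 35.8, 13.1 and 30.3 CPM on days 1, 2 and 4, 50.4 and 37.3 CPM on day 7, 0 and 3.02 CPM on day 11, and 30.9 and 13.6 CPM on day 14. The day 11 libraries were the lowest with 1 UMI in all, against 51 on day 7, a fall in level by a ratio of 21.1 (95% counting interval 3.63 to 851), with adjusted p = 0.00162. Top2a, a topoisomerase of dividing cells, had 0 UMIs on day 11 against 40 on day 7, at least 5.53-fold lower (adjusted p = 0.0106).

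The genes with the largest changes on day 7, chosen by size among called genes with a mean of at least 6 on the log2 CPM scale and groups that did not overlap, were Lyz2, Sprr2f, Ctss, Lcn2, Sprr2g, Ifit3, Ifi44 and Apoe above the control. The 2 day 7 libraries were apart for Ifit3, at 2.40 and 57.2 CPM, and for Apoe, at 2517 and 378 CPM. Sprr2f and Sprr2g encode small proline-rich proteins of stressed epithelia. Sprr2f stood at 0 CPM in the control, 1834, 652 and 854 CPM on days 1, 2 and 4, 475 and 331 CPM on day 7, 3.39 and 3.02 CPM on day 11, and 0 and 0 CPM on day 14. It was present in every library of days 1 to 7 and almost absent elsewhere, and in those 5 libraries it was 331 to 1834 CPM in intercalated cells against 82.8 to 678 CPM in all other kept cells. In principal cells it was at 2318, 512 and 269 CPM on days 1, 2 and 4 and 651 and 332 CPM on day 7, above intercalated cells in 3 of the 5 libraries. On day 7 it was at least 89.8-fold higher than in the control (adjusted p = 3.92e-09). Lyz2 (lysozyme), Ctss (cathepsin S) and Apoe are abundant in macrophages, and all 3 were higher in the other cells than in intercalated cells in all 10 libraries. Lyz2 was at 1818 and 539 CPM on day 7 in intercalated cells and 5300.0 and 5255 CPM in the others. Apoe rose by 6.62 ± 0.88 on the log2 scale (SE; adjusted p = 1.17e-05) with all cells, and its log2 change was 3.80 without the macrophage-marker cells (adjusted p = 6.94e-05). Lyz2 and Ctss also passed without them (adjusted p = 9.17e-07 and 3.95e-05). The part of macrophage RNA in these 3 genes was not tested further.

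The genes furthest below the control on day 7 were mostly genes of other tubule segments. They were Pvalb and Egf of the distal nephron, and Akr1c21, Slc22a12, Slc7a13, Slco1a1, Kap and Cyp4b1. Of the 8, 7 were higher in other cells than in intercalated cells in all 10 libraries. The exception was Pvalb, at 529 CPM in intercalated cells and 294 CPM in all other kept cells of the control. Kap, an abundant proximal tubule transcript, was at 3992 CPM in intercalated cells of the control and 19.2 and 192 CPM on day 7. The 8 leading rises from day 7 to day 11 and to day 14 were of the same kind, with 8 of 8 higher in other cells in all 10 libraries (Akr1c21, Slc7a13, Slc22a12, Cyp4b1 and Kap in both, with Miox, Pck1 and Ugt2b38 for day 11 and Ugt2b38, Slc22a6 and Ces1f for day 14). The 8 proximal markers other than Kap and Miox, none of them among these leading genes, summed in intercalated cells to 1124 CPM in the control, 214 and 149 CPM on day 7, 726 and 1654 CPM on day 11 and 3068 and 3478 CPM on day 14. Their part in these changes was not tested.

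On day 11 the leading genes above the control were the hemoglobin genes Hbb-bs, Hba-a2 and Hba-a1, then Ctss, Lcn2, Krt19, S100a6 and 1 further transcript. Hbb-bs was at 576 and 196 CPM on day 11 and 349 CPM on day 1. In all other kept cells Hbb-bs was at 669 and 370.1 CPM on day 11, 736 CPM on day 1 and 66.9 CPM in the control. Below the control were Pvalb, Egf and Slc12a3 of the distal nephron, and Sfrp1, a secreted Wnt antagonist. The others were the nuclear genes Ranbp2 and Syne2 and 2 predicted transcripts. In all other kept cells Ranbp2 was lower too, at 106 CPM in the control and 17.7 and 16.4 CPM on day 11. Syne2 was there at 344 CPM in the control and 101 and 66.5 CPM on day 11. Sfrp1 stood at 362 CPM in the control, 38.8, 94.6 and 42.7 CPM on days 1, 2 and 4, 110.5 and 93.3 CPM on day 7, 37.3 and 42.2 CPM on day 11, and 359 and 282 CPM on day 14. It was high in the control and on day 14 and at most 110.5 CPM in every library between. In all other kept cells Sfrp1 was higher in each of the 10 libraries, with 525 CPM in the control, 346 and 313 CPM on day 11 and 444 and 414 CPM on day 14. Sfrp1 fell by 3.32 ± 0.33 on the log2 scale (SE; adjusted p = 1.72e-06) from the control to day 11 and rose by 3.12 ± 0.31 on the log2 scale (SE; adjusted p = 3.15e-06) from day 11 to day 14. Slc12a3, the thiazide-sensitive transporter of the distal convoluted tubule, was at 257 CPM in the control, 17 and 51.3 CPM on day 11 and 269.9 and 214 CPM on day 14. The sum of 5 distal convoluted tubule markers in intercalated cells was 1375 CPM in the control, 1008 and 635 CPM on day 14 and at most 271 CPM elsewhere. In all other kept cells it was 848 CPM in the control, 726 and 601 CPM on day 14 and at most 550 CPM elsewhere. In principal cells it was 481 CPM in the control and 687 and 381 CPM on day 14. Intercalated cells thus exceeded both in the control and on day 14. Within the intercalated cells of the control the sum was 308 CPM in type A, 2453 CPM in type B and 4203 CPM in cells with neither exchanger gene.

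On day 14 the leading genes above the control were Rtp4, Hao2, Ugt2b37, Lcn2, Edn1, Cwc22, Ifi27 and Ces1f. Of these 8, Hao2, Ugt2b37 and Ces1f were higher in other cells than in intercalated cells in all 10 libraries. The 10 proximal tubule markers summed in intercalated cells to 5383 CPM in the control and 15747 and 15715 CPM on day 14. Their part in these 3 genes was not tested. Leading genes below the control included Coro2a, Pvalb, Hif1a, Ahnak and 3 predicted transcripts. Edn1, endothelin 1, a peptide that inhibits sodium uptake in the collecting duct, stood at 3.11 CPM in the control, 98.4, 42.1 and 105 CPM on days 1, 2 and 4, 175 and 216 CPM on day 7, 6.78 and 12.1 CPM on day 11, and 16.3 and 63.7 CPM on day 14. It was highest on day 7, and its ratio to the control on day 14 was 11.4 (95% counting interval 3.61 to 57.7), with adjusted p = 0.0146, a call lost without day 14 replicate 2 (adjusted p = 0.258). Hif1a, the oxygen-regulated factor, stood at 166 CPM in the control, 62.6, 74.9 and 92.3 CPM on days 1, 2 and 4, 76.8 and 116 CPM on day 7, 50.9 and 81.5 CPM on day 11, and 45.5 and 40.9 CPM on day 14. The control was the highest of all libraries, and the fall to day 14 was 1.95 ± 0.34 on the log2 scale (SE; adjusted p = 0.00232). Ahnak, a large scaffold protein, was at 358 CPM in the control and 87.8 and 109 CPM on day 14, a fall of 1.90 ± 0.28 on the log2 scale (SE; adjusted p = 0.000532). Both genes were also lower in other cells on day 14. Hif1a went from 148 to 79.1 and 89.3 CPM in principal cells and from 66.1 to 33.5 and 36.3 CPM in all other kept cells. Ahnak went from 279 to 117 and 128 CPM and from 90.1 to 31.9 and 36.6 CPM. Coro2a and Cwc22 moved in other cells as well. In all other kept cells Coro2a went from 21.5 to 0.715 and 0.691 CPM, and Cwc22 from 14.9 to 118 and 95.5 CPM. Without cells with proximal markers 46 of all genes were called on day 14, and Hao2 and Edn1 were not among them (adjusted p = 0.229 and 0.4).

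The leading falls from day 7 included interferon genes, Lcn2 and the small proline-rich proteins, and also Lyz2, Ctss and Apoe, which are abundant in macrophages. From day 7 to day 11 they were Ifit3, Ifi44, Iigp1, Sprr2f, Lyz2, Rtp4, Cwc22 and 1 further transcript. From day 7 to day 14 they were Sprr2f, Lyz2, Sprr2g, Ctss, Coro2a, Apoe, Lcn2 and 1 further transcript. Cwc22 and Coro2a moved the same way in all other kept cells. Cwc22 was there at 481 and 212 CPM on day 7, 11.1 and 9.56 CPM on day 11 and 118 and 95.5 CPM on day 14. Coro2a was there at 87.8 and 64.8 CPM on day 7 and 0.715 and 0.691 CPM on day 14. From day 11 to day 14, Hao2, Rtp4, Pvalb, Cwc22, Egf, Sfrp1, Slc12a3 and Ifi27 rose most, and those that fell most included the 3 hemoglobin genes, Coro2a, Hspb1 and Aqp4. Iigp1, an interferon-inducible GTPase, had 309 UMIs on day 7 and 1 on day 11, a fall in level by a ratio of 128 (95% counting interval 22.8 to 5077), with adjusted p = 1.42e-07. Aqp4, a basolateral water channel of principal cells, fell by 2.15 ± 0.48 on the log2 scale (SE; adjusted p = 0.00938) from day 11 to day 14, a call lost without day 11 replicate 2 (adjusted p = 0.223) or day 14 replicate 2 (0.0703).

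The changes were set against those in principal cells, the salt and water handling cells of the same duct, in the same libraries. The 4093 principal cells were kept cells that were not intercalated, with at least 2 of the 5 principal cell genes and the same 3 genes absent. The change in intercalated cells differed from that in principal cells in 369 of 11021 genes (3.35%) from the control to day 7, 261 more positive (2.37%) and 108 more negative (0.98%). It differed from day 7 to day 14 in 177 genes (1.61%), 85 more positive (0.771%) and 92 more negative (0.835%). The test was edgeR's interaction of cell type and day with the library as a block. The 10 proximal tubule markers summed to 34869 CPM in principal cells of the control and 695 and 1832 CPM on day 7, against 5383, 240.1 and 351 CPM in intercalated cells. On day 14 they summed to 33299.9 and 37198 CPM in principal cells and 15747 and 15715 CPM in intercalated cells. The part of proximal RNA in the differences between the cell types was not tested. Of 19 interferon and MHC class I genes, 0 differed from the control to day 7 (unadjusted p under 0.05 in 2). From day 7 to day 14, 1 was more negative, where 0.835% of all genes were, which is read as no result for the list. Of 21 V-ATPase subunits, 0 differed in either comparison (unadjusted p under 0.05 in 3 and 3). Of 28 nuclear oxidative phosphorylation genes 0 did (5 and 7). These counts do not show that the cell types changed alike. For Clu the difference was -0.24 ± 0.28 (SE; adjusted p = 0.835) from the control to day 7, which did not pass, and neither did that of Lcn2 (adjusted p = 0.549), which had 2 UMIs in intercalated cells of the control. Leaving out day 7 replicate 2 gave 183 genes for day 7, and leaving out any 1 library of day 7 or 14 gave between 76 and 95 for day 14.

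Injury genes differed in degree. Of 30, 1 was more positive and 5 more negative in intercalated than in principal cells from the control to day 7, where 2.37% and 0.98% of all genes were. Between day 7 and day 14, 8 were more positive and 1 more negative, against 0.771% and 0.835% of all genes. A count of 1 of 30 is read as no result for the list. Sox4 was at 283 CPM in intercalated cells and 80.9 CPM in principal cells of the control. On day 7 the values were 471 and 606 CPM against 495 and 534 CPM. The day 7 levels overlapped and the control levels were apart, which gave a difference in log2 change of -1.63 ± 0.24 (SE; adjusted p = 9.15e-07). Tmsb10, an actin-binding thymosin, gave -1.78 ± 0.33 (SE; adjusted p = 7.82e-05). After day 7, to day 14, Sox4 gave 1.98 ± 0.24 (SE; adjusted p = 1.23e-08). For Clu the difference from day 7 to day 14 was 1.12 ± 0.24 (SE; adjusted p = 0.00219), and 0.24 (adjusted p = 0.858) without day 14 replicate 2.

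Genes of intercalated identity differed too. Of 18 tested, 4 changes from the control to day 7 were more negative than in principal cells (Spink8, Gpr116, Jag1 and Tmem213), where 0.98% of all genes were, and 4 from day 7 to day 14 were more positive, where 0.771% were. Spink8, a protease inhibitor of type B cells, was at 375 CPM in the control and 235 and 457 CPM on day 7 in intercalated cells. In principal cells it was at 60.8 CPM and then 181 and 376 CPM. The difference in log2 change was -2.21 ± 0.26 (SE; adjusted p = 1.59e-09).

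The serpins Serpinb6b and Serpinb9, inhibitors of granzyme-type proteases, and Ociad2, a mitochondrial and endosomal protein, were among the leading differences, with larger changes in principal than in intercalated cells. Serpinb6b stood at 97.3 CPM in the control, 369.8, 463 and 325 CPM on days 1, 2 and 4, 355 and 389 CPM on day 7, 241 and 241 CPM on day 11, and 174 and 182 CPM on day 14 in intercalated cells. In principal cells it stood at 1.38 CPM in the control, 47.3, 87 and 139 CPM on days 1, 2 and 4, 97.1 and 130.0 CPM on day 7, 19.7 and 14 CPM on day 11, and 1.95 and 2.48 CPM on day 14. It was above its principal cell level in all 10 libraries, and the ratio of the 2 levels was smallest on days 4 and 7. The difference in log2 change was -4.25 ± 0.65 (SE; adjusted p = 1.7e-06) to day 7, and 4.40 ± 0.39 (SE; adjusted p = 5.84e-14) from day 7 to day 14. The first rests on 2 UMIs in principal cells of the control against 264 on day 7, a ratio of 85.8 per total UMIs, without TMM scaling (95% counting interval 23.5 to 712). Serpinb9 ranged from 328 to 716 CPM in intercalated cells over the 10 libraries. In principal cells it was at 8.98 CPM in the control, 114 and 118 CPM on day 7 and 8.43 and 8.43 CPM on day 14. Ociad2 was at 11.1 CPM in principal cells of the control, 238 and 202 CPM on day 7 and 15.6 and 10.9 CPM on day 14, against 205, 555 and 514, and 335 and 334 CPM in intercalated cells. The genes outside the rule that mark intercalated cells summed to 1599.9 to 3062 CPM in principal cells, and the part of shared RNA between the 2 cell types was not tested.

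Guca2a, the peptide guanylin, was another gene of this kind. It stood at 155 CPM in the control, 591, 331 and 202 CPM on days 1, 2 and 4, 216 and 352 CPM on day 7, 322 and 329 CPM on day 11, and 149.6 and 227 CPM on day 14 in intercalated cells. In principal cells it was at 1.38 CPM in the control and 18.1 and 36.5 CPM on day 7. Intercalated cells exceeded principal cells in all 10 libraries, and the change to day 7 differed (adjusted p = 0.0038), a call lost without day 7 replicate 2 (adjusted p = 0.0514). Its 2 UMIs in principal cells of the control against 67 on day 7 gave a ratio of 21.8 per total UMIs (95% counting interval 5.80 to 183).

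Differences in cell cycle genes after day 7 rested on 1 library. Of 15 tested, 5 changes from day 7 to day 14 were more positive in intercalated than in principal cells (Mki67, Top2a, Ccnb2, Cdk1 and Rrm2), where 0.771% of all genes were, with 2.89 ± 0.55 (SE; adjusted p = 0.000503) for Mki67 and 3.70 ± 0.70 (SE; adjusted p = 0.000503) for Top2a. On day 14 Top2a was at 34.1 CPM in replicate 1 and 0 in replicate 2 of intercalated cells. Without day 14 replicate 1 the difference was 1.96 for Mki67 (adjusted p = 0.46) and turned to -4.42 for Top2a (adjusted p = 0.766). In principal cells Mki67 was at 111 and 65.3 CPM on day 7 and 3.89 and 6.45 CPM on day 14. From the control to day 7, 0 of 15 passed (unadjusted p under 0.05 in 2).

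**Figure D5:**
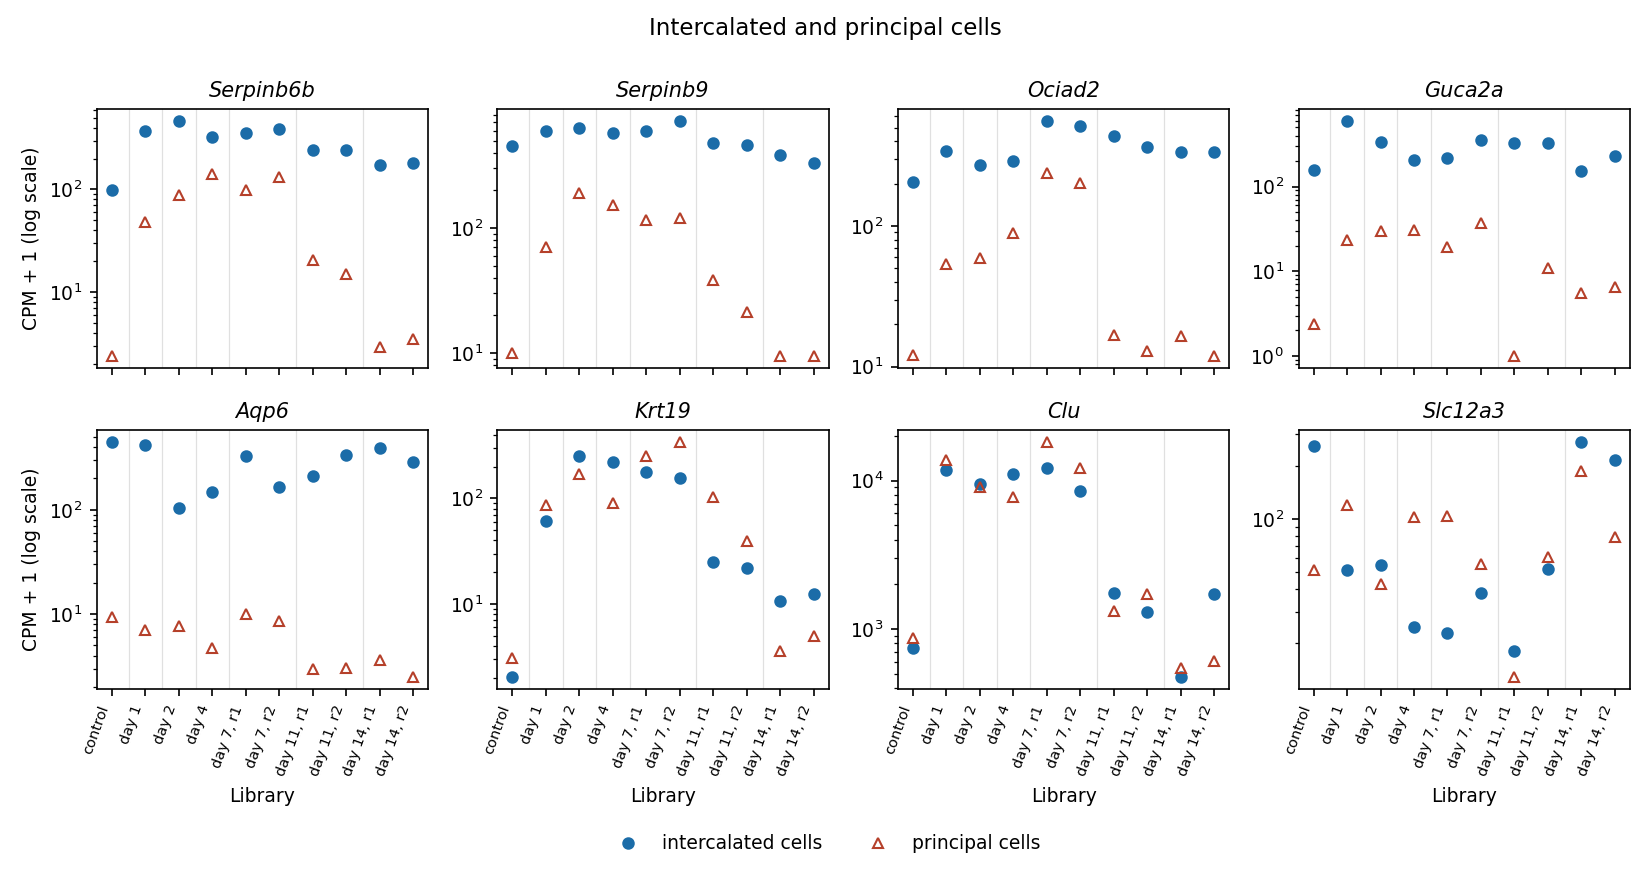
Each panel gives 1 gene, with CPM plus 1 on a log axis against the library, for summed intercalated cells (filled circles) and summed principal cells (open triangles). Serpinb6b, Serpinb9, Ociad2 and Guca2a are above principal cells in every library, and Krt19 and Clu cross between the 2 cell types.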

How the data were processed

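Kidney cortex cells from 10 Drop-seq libraries (modified Nextera XT, reads from the 3′ end, per the labels' protocols) were analysed. The deposited tables hold whole-number counts per gene and cell barcode made by the authors, read here as UMI counts although the labels do not name UMIs. The submitters' processing notes name Bowtie2 2.2.7 and mm10, without giving their roles, and filters before deposit are not given in the sources used here.

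Kept barcodes had at least 500 genes and no more than 50% of UMIs from mitochondrial genes. The members, gene lists and tests were chosen with earlier results of these data known. Counts of members were summed per library (95 to 202 cells, 294902 to 965968 UMIs) and tested with edgeR 4.0.16 (filterByExpr, TMM scaling, quasi-likelihood test, all groups in 1 fit, 3 residual degrees of freedom, Benjamini-Hochberg adjustment). The control and days 1, 2 and 4 have 1 library each, which is assumed to vary like the replicated days. DESeq2 1.42.0 was an alternative. Change was compared with principal cells by an interaction term with a library block. Genes of the rule were described but not tested.

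Besides listed genes, the text names up to 8 genes per direction and comparison, and 5 per direction for each interaction. These have the largest log2 change among genes with adjusted p under 0.05 and a mean log2 CPM of at least 6, and for comparisons between days also groups that do not overlap. Some genes that meet this rule are not reported here. A ratio between days with 1 to 3 counts in a group is given with its 95% counting interval, and one against 0 counts as a bound at 3 counts of the group. Differences from principal cells that rest on so few counts are fitted values and are named as such. Intervals cover counting error only. Scrublet's automatic threshold marked at most 0.111% of the cells of a library, so it had not worked. Doublets were kept, and leaving out the highest 5% of scores was an alternative. In simulated data with 100 changed genes per fold, the test recovered 86% of 4-fold and 97% of 8-fold changes between day 7 and control (8721 genes). The interaction recovered 32% and 79% (10520 genes). False calls numbered 11 (5.67% of calls) for the test and 6 (5.13%) for the interaction.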

Additional observations from a re-analysis of the deposited data

Results flagged for a closer look

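The change between days differed between intercalated and principal cells in the interaction test for the genes below, given as the change in intercalated minus that in principal cells on the log2 scale. Among the genes of largest difference from the control to day 7, Mpv17l (4.25), Cd36 (3.69), Eci3 (3.60), Iigp1 (3.43) and Odc1 (3.40) were more positive in intercalated cells. In principal cells Mpv17l went from 929 CPM in the control to 10.4 and 24.8 CPM on day 7. Cd36 went there from 477 to 11.7 and 20.6 CPM, Eci3 from 199.7 to 15.5 and 16.5 CPM and Odc1 from 1067 to 51.8 and 35.8 CPM. The sum of proximal tubule markers in principal cells went from 34869 to 695 and 1832 CPM, and its part in these differences was not tested. On the other side, Serpinb6b (-4.25), Slc12a3 (-3.42), Guca2a (-3.26), Serpinb9 (-3.04) and Sparc (-3.02) were more negative. From day 7 to day 14, the leading genes were Serpinb6b (4.40), Slc7a13 (3.59), Ociad2 (3.23), Serpinb9 (2.71) and Cdkn1a (2.51) on the positive side and Rab11fip3 (-1.98), Eci3 (-1.98), Ifit1 (-1.89), Csad (-1.88) and Cd36 (-1.63) on the negative side.

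Among the listed genes, Clcn5 (1.77), Lgals3 (0.68), Dnaja1 (0.89) and Hspd1 (1.44) were more positive and Spink8 (-2.21), Gpr116 (-1.18), Jag1 (-1.99), Tmem213 (-0.76), Krt18 (-0.85), Sox4 (-1.63), Anxa3 (-7.33), Vim (-2.50), Tmsb10 (-1.78), Atf3 (-1.16) and mt-Nd5 (-0.70) more negative from the control to day 7. From day 7 to day 14, Aqp6 (2.43), Hepacam2 (3.18), Spink8 (0.96), Gpr116 (1.72), Jag1 (3.12), Krt8 (0.70), Krt19 (2.40), Clu (1.12), Sox4 (1.98), Anxa3 (3.81), Tmsb10 (1.32), Tnfrsf12a (1.19), Atf3 (1.57), Mki67 (2.89), Top2a (3.70), Ccnb2 (3.90), Cdk1 (4.45) and Rrm2 (2.48) were more positive and Clcn5 (-1.46), Lgals3 (-1.03) and Defb1 (-0.57) more negative. Cd36 and Eci3 appear in both comparisons with opposite signs. Cd36 differed by 1.20 (adjusted p = 0.699) from the control to day 7 once cells with macrophage markers were left out. Values of 7 differences rest on 0 to 3 UMIs in a group and depend on the small count that the fit adds. Anxa3 had 0 UMIs in principal cells of the control. The ratios below use scaled library sizes for intercalated cells, as elsewhere, and total UMIs for principal cells. From the control to day 7 they were 85.8 (95% counting interval 23.5 to 712) for Serpinb6b and 21.8 (5.80 to 183) for Guca2a in principal cells, with 2 UMIs each in the control, and 59.8 (20.3 to 291) for Iigp1 in intercalated cells, with 3. After day 7, Slc7a13 rose from 1 UMI in intercalated cells by a ratio of 486 (86.7 to 19271). In principal cells, with 2 UMIs each on day 14, Cdk1 fell by a ratio of 47.2 (12.5 to 398) and Hepacam2 by 11.2 (2.57 to 101). The differences of Top2a, Ccnb2 and Cdk1 after day 7 turned negative without day 14 replicate 1.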

How the results depend on the processing

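Of 524 called values of named or listed genes, 262 kept their direction and side of the threshold under each alternative that gave a value, and 262 lost the call under at least 1. Lost calls numbered 142 with DESeq2, 85 without cells with proximal markers, 63 with 3 rule genes required, 28 without cells with macrophage markers (chosen after seeing the data), 24 with no filter on low counts, 12 with the replicate block, 6 without high doublet scores, 5 with median-ratio scaling and 421 over the 6 fits that leave out 1 library. Some differences from principal cells changed sign. From the control to day 7 this was Sparc (3.54 with 3 rule genes). For day 14 against day 7 they were Cd36 (0.87 without cells with macrophage markers) and, with 3 rule genes, Top2a (-2.61), Ccnb2 (-2.83) and Cdk1 (-1.06). With 1 library left out, the value lay between -1.41 (without day 7 replicate 2) and 3.89 for Slc7a13, and, lowest without day 14 replicate 1, between -4.42 and 10.1 for Top2a, -2.49 and 4.61 for Ccnb2 and -1.36 and 5.41 for Cdk1. The cause was not tested.

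The intercalated cell share at 800 UMIs per cell was 2.78% in the control, 2.55% on day 2, 1.87% on day 4, 2.86% on day 7, 1.63% on day 11 and 1.67% on day 14. With 3 rule genes it was 2.20% in the control, then 1.68%, 1.71%, 1.34%, 1.80%, 1.39% and 1.45% on days 1, 2, 4, 7, 11 and 14. At 25% mitochondrial UMIs it was 2.50% in the control and 1.62% on day 14. Without cells with proximal markers it was 2.54% in the control, 1.79% on day 2, 1.90% on day 4, 1.47% on day 11 and 1.40% on day 14, and without macrophage-marker cells 2.66% on day 7. Type B made up 52.8%, 86.2%, 75.6%, 66.8% and 58.3% at 800 UMIs in the control and on days 1, 7, 11 and 14, 64.8% on day 1 with 3 rule genes, and 54.8% in the control and 60.3% on day 11 at 25% mitochondrial UMIs. Spearman's rho of share and day was -0.667 (exact permutation p = 0.0566) at 800 UMIs, -0.414 (p = 0.269) with 3 rule genes, -0.716 (p = 0.0794) without days 1 and 2, -0.852 (p = 0.00573) without cells with macrophage markers, -0.819 (p = 0.00996) at 25% mitochondrial UMIs, 0.498 (p = 0.176) as a share of intercalated and principal cells (a denominator chosen after seeing the data), and between -0.771 and -0.590 with 1 library left out. The difference of day 7 from days 11 and 14 was 0.385 percentage points of kept cells with 3 rule genes, 0.707 without cells with macrophage markers, and -3.32 percentage points of intercalated and principal cells (exact permutation p = 0.6).

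DESeq2 called 249, 103 and 31 genes on days 7, 11 and 14 against the control, 496 and 537 on days 11 and 14 against day 7 and 163 between days 14 and 11. With 3 rule genes 93 were called on day 14 against the control, 805 against day 7 and 432 in the difference from principal cells from day 7 to day 14. Without cells with proximal markers the counts were 46 for day 14 against the control, 898 and 762 for days 11 and 14 against day 7 and 144 between days 14 and 11. Leaving out 1 library gave 723 to 947 for day 7 against the control, 113 to 794 for day 11 against the control, 126 to 410 for day 14 against the control, 620 to 1360 for day 11 against day 7, 731 to 1506 for day 14 against day 7, 199 to 681 for day 14 against day 11, 183 to 445 for the difference from principal cells from the control to day 7 and 76 to 241 for that from day 7 to day 14.

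Deviations of same-numbered libraries had correlations of 0.0469, 0.0101 and -0.0138 between the paired days. The values show no shared deviation in gene levels. They cannot tell whether same-numbered libraries were taken or processed together. With the replicate block, 1335 genes differed between days 11 and 7, 1286 between days 14 and 7 and 469 between days 14 and 11. Depth limits genes with few UMIs in a library's sum, and 95 to 202 cells per library limit shares of types.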
